A study of Mus musculus with 12 samples.

Results

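DNA replication and S-phase genes are described here in bone-marrow stem cells of mice with and without the oncostatin M receptor gene Osmr. The group is a list of 41 gene symbols, picked by name with no measured value in the rule, out of 43279 gene rows in the table. All 41 were found, and all passed the filter on low values that 13358 rows passed in all. The values are normalised read counts, that is, reads per gene divided by a size factor of the library, so that libraries of different depth can be set side by side.

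RNA was sequenced from 1000 sorted cells per mouse, lineage-negative, KIT+, SCA-1+, FLT3- and CD48-, a gate that holds long-term and short-term stem cells. One group, WT, came from naive adult C57BL/6 mice (6 libraries, label numbers 1 to 6), and the other from naive adult Osmr-/- mice (5 libraries, label numbers 1, 2, 3, 5 and 6), with a different mouse for each library and no treatment in either group. A further Osmr-/- sample, number 4, was not analysed here, as no table column carries its name. The labels do not say how the Osmr allele was made, whether the groups were littermates, or which libraries were prepared together, and the series asks how missing OSMR signals in the niche alter stem cells.

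Replication begins when the origin recognition complex, CDC6 and CDT1 load the ring-shaped MCM2-7 helicase on DNA, a step called licensing. CDC45 and GINS then join the ring, MCM10 helps to set it moving, and primase, polymerases and the sliding clamp PCNA copy the strands behind it. Most of these genes are switched on by E2F transcription factors at the G1-to-S transition, and long-term stem cells of the bone marrow are known for being mostly out of cycle. In bulk RNA fewer cells in S phase and less RNA per S-phase cell cannot be told apart.

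Depth was 9.89 to 22.1 M reads per WT library and 9.50 to 11.2 M reads per Osmr-/- library (M, mega). Osmr itself had between 0 and 6.72 normalised counts per WT library and between 0 and 1.95 per Osmr-/- library, from 13 and 4 reads in all, so it was near absent in both groups and gave no check of the genotype labels. All 16 genes of a stem cell list were detected, among them Kit at 3740 ± 460 (SD, n = 6) and Mecom at 1280 ± 446 in WT. Between genotypes, 8 of the 16 lay higher in Osmr-/- and 8 lower, and none had an adjusted p under 0.05 in limma. Meis1 was higher and Pdzk1ip1 lower without overlap, with log2 differences of 0.53 and -0.62, beside 2.52% of all genes tested without overlap. Transcripts of the proteins selected against were present too, with Flt3 at 504 ± 164 and Cd48 at 637 ± 429 in WT (SD, n = 6). Libraries numbered 1 to 3 stood apart from those numbered 4 to 6 in both genotypes by earlier results on these data. The nuclear RNA Malat1 ran from 9975 to 51523 in WT 1 to 3 and from 175463 to 230983 in WT 4 to 6. In Osmr-/- the gap was narrower, with 72916 to 109658 in numbers 1 to 3 and 173014 and 130004 in numbers 5 and 6. The labels name no batch, so these number sets were defined from the data, and values within each set are given below.

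Every member had reads in every library, and only Mcm10 in Osmr-/- 1 lay under 10 normalised counts. In WT the members together made up 0.391% ± 0.0459 of all counts (SD, n = 6). In Osmr-/- this share was 0.334% ± 0.0279 (SD, n = 5). Per kilobase of annotated exon, the highest members in WT were the fork protection gene Tipin at 2034 ± 1010 normalised counts per kb, the licensing inhibitor Gmnn at 1612 ± 683, Pcna at 1310 ± 462 and the histone mRNA binder Slbp at 557 ± 355 (SD, n = 6). The lowest were the uracil glycosylase Ung at 8.19 ± 5.30, Mcm10 at 14.0 ± 2.72, the repressor E2f8 at 20.8 ± 6.05 and the exonuclease Exo1 at 21.0 ± 4.31 (SD, n = 6). The 6 subunits of the MCM2-7 ring lay close together, from 113 ± 41.4 for Mcm2 to 301 ± 76.0 for Mcm6 (SD, n = 6). Mcm10 therefore sat far below the ring it helps to start, although the names are alike. Exon lengths are unions over all annotated transcripts, so these levels are approximate.

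The promoters of the members were searched for the E2F-type words TTTCCCGC, TTTCGCGC, TTTGCCGC and TTTGGCGC on both strands, where words may overlap each other. RefSeq windows on GRCm38.p6, from 250 bases before to 50 after each start, were found for 31 of the 41 members. A word was present in 13 of these 31 genes (41.9%), beside 704 of 27025 genes with a window (2.60%), 441 of 9174 tested genes with one (4.81%) and 744 of 32851 windows (2.26%). The stretches below show what a promoter with words and one without look like, in members from different steps of replication. They were picked as examples: Pold3, one of the lowest members in Osmr-/-, also carried a word, TTTCCCGC, but past its start and so outside the stretches shown. They end at the base before the start and run 5′ to 3′ on the gene's strand, with the words in capitals. Mcm6 carried 3 words, a pair of them overlapping, at chr1:128359706-128359825 (minus strand), Pola1 carried 1 at chrX:93632156-93632305 (minus strand) and Hells carried 1 at chr19:38930870-38930989 (plus strand), and Mcm10, the member with the largest difference between genotypes, carried none at chr2:5012792-5012911 (minus strand).
Mcm6: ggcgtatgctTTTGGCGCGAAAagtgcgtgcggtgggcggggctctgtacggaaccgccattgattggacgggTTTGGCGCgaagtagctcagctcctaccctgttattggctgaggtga
Pola1: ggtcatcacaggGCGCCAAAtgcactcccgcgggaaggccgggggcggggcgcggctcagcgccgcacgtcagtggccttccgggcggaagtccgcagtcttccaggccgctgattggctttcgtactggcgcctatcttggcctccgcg
Hells: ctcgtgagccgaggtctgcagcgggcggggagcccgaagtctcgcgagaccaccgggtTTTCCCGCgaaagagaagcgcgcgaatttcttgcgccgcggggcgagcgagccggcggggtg
Mcm10: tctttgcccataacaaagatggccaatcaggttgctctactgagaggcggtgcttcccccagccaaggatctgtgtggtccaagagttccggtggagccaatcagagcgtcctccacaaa
A match describes the letters and not a bound site. The 13 members with a word had a median log2 difference between genotypes of 0.15, with 8 above 0 and 5 below. The 18 members searched and found without one had a median of -0.26, with 7 above and 11 below. These medians were not tested.

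The comparison of Osmr-/- with WT asked whether the replication program as a group differed. The signs and the median of the members' log2 differences were close to those of all genes tested. Of the members, 23 lay below 0 and 18 above, beside 53.2% of all genes tested below 0 and 46.8% above. Their share of all counts was 0.391% ± 0.0459 in WT (SD, n = 6) and 0.334% ± 0.0279 in Osmr-/- (SD, n = 5). No test was made for the group as a whole. The median log2 difference of the members was -0.05, and that of all 13358 genes tested was also -0.05. No member passed the threshold of an adjusted p under 0.05 in limma, where 0.0225% of genes did so. At an unadjusted p under 0.05 limma placed 5 members lower and 1 higher, which is 14.6% of members beside 18% of all genes (10.5% lower and 7.5% higher). The edgeR test on recovered reads called none either, beside 0.015% of all genes, with 6 members at an unadjusted p under 0.05 beside 15.4%. In these limma and edgeR counts over both directions, the share of members was below that of all genes, while the lower share alone was 12.2% of members beside 10.5% in limma. The 5 members lower in Osmr-/- at an unadjusted p under 0.05 in limma were Mcm10, Rfc2, Pold3, Rpa2 and Chaf1b, and the 1 higher was Hells. Pcna and the subunits of the helicase ring had log2 differences between -0.09 and 0.46.

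**Figure D1:**
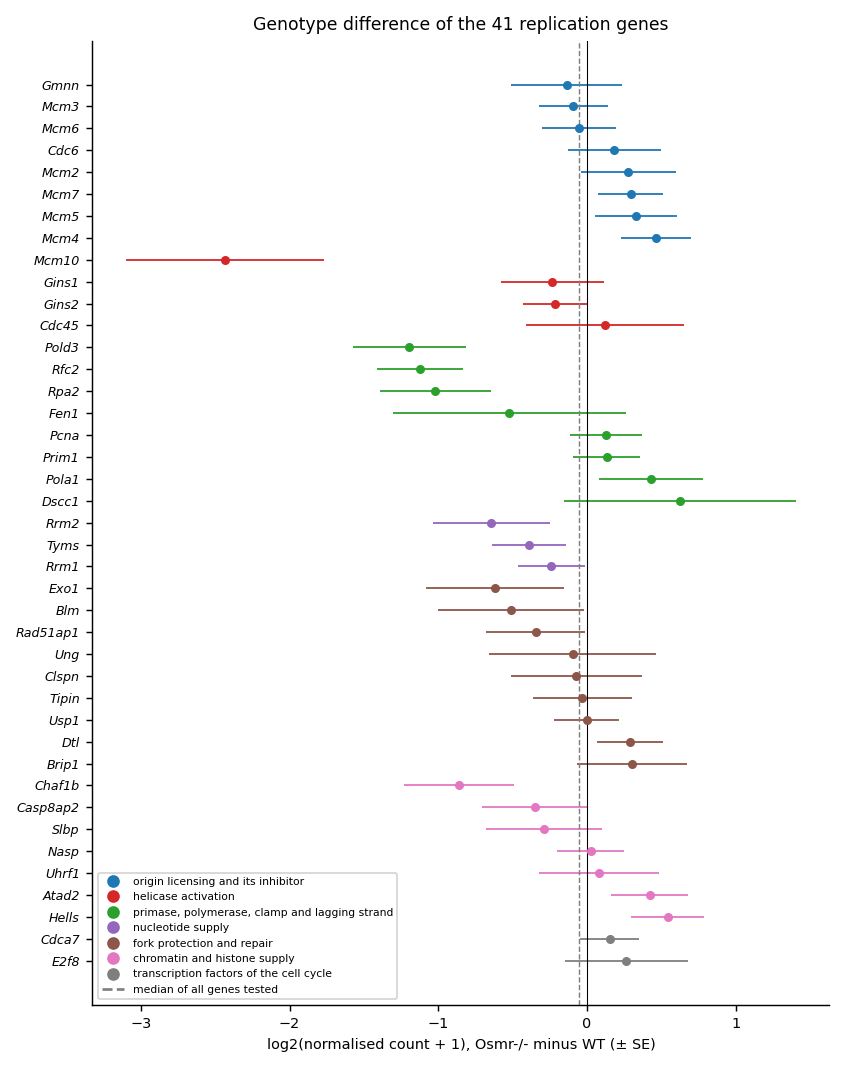
The x axis gives the log2 difference of each of the 41 genes, Osmr-/- minus WT, on the log2(normalised count + 1) scale; points are limma estimates, bars are 1 SE, colours are role groups and the dashed line is the median of all genes tested (-0.05). Mcm10 lies farthest left at -2.43, and Pold3, Rfc2 and Rpa2 lie between -1.20 and -1.02.

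Among the genes of licensing, the 6 subunits of the helicase ring had log2 differences from -0.09 to 0.46. Mcm4, one of the subunits that form the inner catalytic core, had 526.2, 725 and 1026 as the lowest, median and highest normalised count in WT, and 932, 863, 1422, 802 and 1228 in the Osmr-/- libraries 1, 2, 3, 5 and 6. The groups overlapped, with the higher values mostly in Osmr-/-. The log2 difference of Mcm4 was 0.46 (standard error 0.236), and its adjusted p in limma was 0.314.

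Mcm7, another catalytic core subunit, had 869 ± 196 in WT (SD, n = 6) and 1055 ± 187 in Osmr-/- (SD, n = 5), with a log2 difference of 0.29. Mcm2, which also carries histones at the fork, had 789 ± 288 and 983 ± 373, and Mcm5 had 516 ± 157 and 635 ± 162, with log2 differences of 0.28 and 0.33. Mcm3 and Mcm6 had log2 differences of -0.09 and -0.05. The limma adjusted p-values of Mcm2, Mcm3, Mcm5, Mcm6 and Mcm7 were between 0.504 and 0.933, and none of the ring subunits passed the test. Mcm7 hosts microRNA genes and shares 321 exonic bases with Ap4m1 on the opposite strand, and whether reads were counted by strand is not known from the labels.

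Cdc6, which loads the ring, had normalised counts of 137, 330 and 437 in WT (lowest, median and highest). In Osmr-/- it had 323, 305, 330, 319 and 333, a much narrower span inside that of WT. Gmnn, which blocks reloading of the ring after S phase has begun, ran from 1404 to 4195 in WT and from 713 to 3612 in Osmr-/-.

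Mcm10 was the member with the largest difference. It helps to activate the loaded helicase and to bring polymerase alpha to the origin, and the gene (ENSMUSG00000026669.14) lies at chr2:4989714-5012791 on the minus strand of mm10. Its normalised count was 81.7, 103 and 143 in WT (lowest, median and highest) and 2.27, 14.2, 33.5, 54.6 and 31.2 in the Osmr-/- libraries 1, 2, 3, 5 and 6. All Osmr-/- libraries lay below all WT libraries, and Mcm10 was the only one of the 41 members without overlap, beside 2.52% of all genes tested (1.42% lower). The counts rest on 812 reads in WT and 125 in Osmr-/-.

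On the log2 scale the difference of Mcm10 was -2.43 with a standard error of 0.667, or 5.40-fold lower, with a limma adjusted p of 0.114. The size depends on how low counts are treated: it was -1.85 with a pseudocount of 10, -0.98 on the authors' deposited regularised log2 values and -1.78 without Osmr-/- 1, which had 2 reads. DESeq2 on the recovered reads gave -1.98 with an adjusted p of 0.0322, and it called 3 members, all lower (7.5% of the 40 with an adjusted p), beside 4.54% of the genes it tested (3.15% lower).

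The other genes of helicase activation did not share this pattern. Cdc45, which travels with the ring, ran from 43.4 to 465 in WT and from 67.0 to 273 in Osmr-/-, so the groups overlapped fully. The GINS subunit genes Gins1 and Gins2 had log2 differences of -0.23 and -0.21, and Gins2 shares 2758 of its 4097 exonic bases with Gse1 on the opposite strand. The remaining GINS genes, not members, had -0.28 for Gins3 and -0.65 for Gins4.

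Among the genes of synthesis, Rfc2, Rpa2 and Pold3 were the lowest in Osmr-/-. Rfc2 encodes a subunit of replication factor C, which loads PCNA on DNA, and lies at chr5:134581366-134601805 on the plus strand of mm10. Rfc2 had normalised counts of 1613, 3241 and 4862 in WT (lowest, median and highest) and 1947, 1136, 933, 1855 and 1224 in the Osmr-/- libraries. The Osmr-/- libraries 1 and 5 lay above WT 6 and below the other WT libraries. Rfc2 was 2.18-fold lower, a log2 difference of -1.12 (standard error 0.287) with an adjusted p of 0.101 in limma.

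With WT 6 left out, the limma adjusted p of Rfc2 was 0.0405, at -1.30, and that of Rpa2 was 0.0412, at -1.33. WT 6 was the lowest WT library for both genes, and without it limma called 125 genes in all, beside 3 with every library. With any other library left out, the limma adjusted p ran from 0.0764 to 0.225 for Rfc2 and from 0.189 to 0.313 for Rpa2. DESeq2 gave Rfc2 an adjusted p of 0.0109 and Rpa2 one of 0.0452. Rfc2 shares 952 exonic bases with Lat2 on the opposite strand. Lat2 is an adaptor gene of lymphoid and myeloid cells. It had 276 ± 85.6 in WT (SD, n = 6) and 206 ± 140 in Osmr-/- (SD, n = 5). The log2 difference of Lat2 was -0.77 with a limma adjusted p of 0.477, and its part in the Rfc2 counts was not tested.

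Rpa2 encodes the middle subunit of replication protein A, which coats single-stranded DNA. Its normalised count was 382, 1218 and 2041 in WT (lowest, median and highest) and 712, 300, 539, 659 and 679 in Osmr-/-. WT 6 was the only WT library within the Osmr-/- range, and the other WT libraries lay at 1169 or above. Rpa2 had a log2 difference of -1.02 with a standard error of 0.371 and a limma adjusted p of 0.181.

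Pold3 encodes an accessory subunit of polymerase delta. It had 417, 536 and 1354 in WT (lowest, median and highest) and 143, 221, 273, 388 and 528 in Osmr-/-. Only Osmr-/- 6 reached above the lowest WT libraries. Its log2 difference was -1.20 with a standard error of 0.379 and a limma adjusted p of 0.144. When the fit also held a term for the number sets, Pold3 was the only member called, with a log2 difference of -1.09 and a limma adjusted p of 0.0490, beside 2.52% of all genes called in either direction and 1.53% called lower. As the sets were defined from these data, this call is a description and no separate support.

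**Figure D2:**
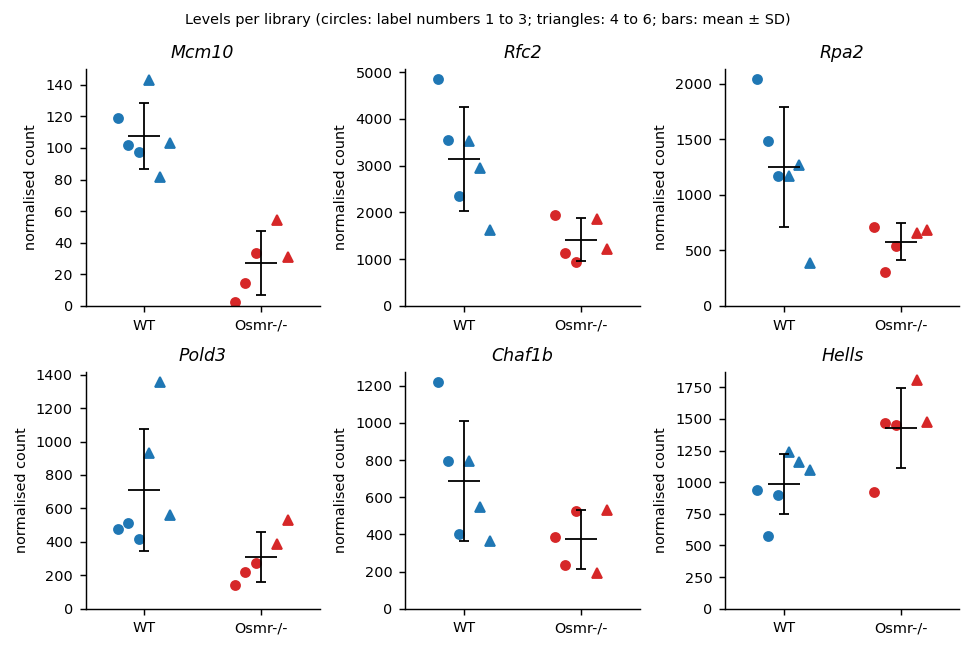
Normalised count (y axis, linear from 0) of 6 members in each library, WT in blue and Osmr-/- in red, with circles for label numbers 1 to 3, triangles for 4 to 6, and black bars for mean ± SD. Mcm10 shows no overlap between genotypes, and in Rfc2 and Rpa2 the lowest WT point, WT 6, falls among the Osmr-/- points.

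Other subunits of the same complexes, set beside these members after their values were seen, did not move as one. In replication factor C, Rfc5 had a log2 difference of -0.92, and Rfc1, Rfc3 and Rfc4 had -0.19, -0.29 and -0.09. The ratio of Rfc2 to the summed counts of these 4 partners was 0.377 to 0.756 in WT and 0.227 to 0.485 in Osmr-/-. In replication protein A, the small subunit gene Rpa3 had 3171 ± 1573 in WT (SD, n = 6) and 5739 ± 1058 in Osmr-/- (SD, n = 5), a log2 difference of 0.98 with a limma adjusted p of 0.142.

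The ratio of Rpa3 to Rpa2 counts within a library does not depend on the scaling of the libraries. It was 1.26, 1.79 and 9.47 in WT (lowest, median and highest) and 6.20, 8.53 and 22.9 in Osmr-/-, with overlap between the groups. The large subunit gene Rpa1 had a log2 difference of 0.46. In polymerase delta, the catalytic subunit gene Pold1 had 0.68, Pold2 had -0.05 and Pold4 had -0.47, with limma adjusted p-values from 0.403 to 0.968.

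The remaining synthesis genes showed no common direction. Pcna, the clamp that holds polymerases on DNA, had 3145 ± 1108 in WT (SD, n = 6) and 3268 ± 276 in Osmr-/- (SD, n = 5), with a log2 difference of 0.13, a standard error of 0.243 and a limma adjusted p of 0.821. Its WT values split by number, with 4123 on average in WT 1 to 3 and 2166 in WT 4 to 6. Pseudogenes of Pcna exist and could share reads with it. The polymerase alpha gene Pola1 and the primase gene Prim1 had log2 differences of 0.43 and 0.13. Fen1, the flap nuclease of the lagging strand, and Dscc1, of the alternative clamp loader, each had 1 WT library far below the rest: Fen1 was at 12.0 in WT 1 and Dscc1 at 11.4 in WT 6. Fen1 shares 1909 of its 2422 exonic bases with the antisense gene Gm10143. In all, 8 members share exonic bases with another gene, Cdc45, Dscc1, Slbp and E2f8 among them with 199 to 610 bases, and reads of such partners cannot be told apart without strand.

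All 3 genes of nucleotide supply lay below 0. Tyms, which makes thymidylate, had 1965, 2610 and 3191 in WT (lowest, median and highest) and 1951, 3278, 1254, 2012 and 1714 in Osmr-/-. The highest value of all was in Osmr-/- 2, so the groups overlapped. The log2 difference of Tyms was -0.39 with a limma adjusted p of 0.423. Rrm2, the small subunit of ribonucleotide reductase that is made in S phase, had 504 ± 262 in WT (SD, n = 6) and 305 ± 124 in Osmr-/- (SD, n = 5), with a log2 difference of -0.65 and a limma adjusted p of 0.408. The large subunit gene Rrm1 had -0.24. Rrm2b, its p53-induced counterpart outside S phase and not a member, had 0.60 with a limma adjusted p of 0.348.

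Of the 9 genes of fork protection and repair, 7 lay below 0 and 2 above. Exo1, which resects DNA ends, had 129, 189 and 213 in WT (lowest, median and highest) and 128, 154, 41.2, 72.1 and 304 in Osmr-/-. The Osmr-/- values spread to both sides of WT, and the log2 difference was -0.62 with a limma adjusted p of 0.503. The helicase gene Blm, mutated in Bloom syndrome, spread widely as well, from 66.8 to 624.5 in Osmr-/- against 176 to 378 in WT. Usp1, a deubiquitinase of PCNA and FANCD2, had a log2 difference of -0.00 at 1015 ± 239 in WT (SD, n = 6). The checkpoint adaptor gene Clspn and the CDT2 gene Dtl, whose product targets CDT1 for destruction, had -0.07 and 0.29. Brip1, a helicase gene of the Fanconi anemia pathway, had 176 ± 45.4 in WT (SD, n = 6) and 230 ± 94.7 in Osmr-/- (SD, n = 5).

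Chromatin genes went both ways. Chaf1b, a subunit of chromatin assembly factor 1, had 362, 670 and 1221 in WT (lowest, median and highest) and 386, 233, 528, 195 and 531 in Osmr-/-. Of the Osmr-/- libraries, 3 lay within the lower part of the WT range and 2 below it. Its log2 difference was -0.86 with a standard error of 0.369 and a limma adjusted p of 0.247. The partner subunit gene Chaf1a was scarce, at 79.9 ± 46.0 in WT (SD, n = 6), with a log2 difference of 0.33.

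Hells, a remodeller that supports DNA methylation after replication, was the single member higher at an unadjusted p under 0.05. It had 577, 1019 and 1240 in WT (lowest, median and highest) and 924, 1467, 1453, 1807 and 1473 in Osmr-/-. Of the Osmr-/- libraries, 4 lay above every WT library, and Osmr-/- 1 lay within their range. The log2 difference was 0.54 with a standard error of 0.244 and a limma adjusted p of 0.262. Atad2, a bromodomain gene, had 0.42 with an adjusted p of 0.410, and Uhrf1, which reads hemimethylated DNA, had 0.08.

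The histone supply gene Slbp had 3386 ± 2155 in WT (SD, n = 6) and 2453 ± 835 in Osmr-/- (SD, n = 5), and the histone chaperone gene Nasp had 1237 ± 139 and 1300 ± 374. Casp8ap2, needed for histone gene expression, had 1120 ± 563.9 and 820 ± 255. Both transcription factor genes of the cell cycle in the group lay above 0, with Cdca7 at 0.15 and E2f8 at 0.26 on the log2 scale.

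**Figure D3:**
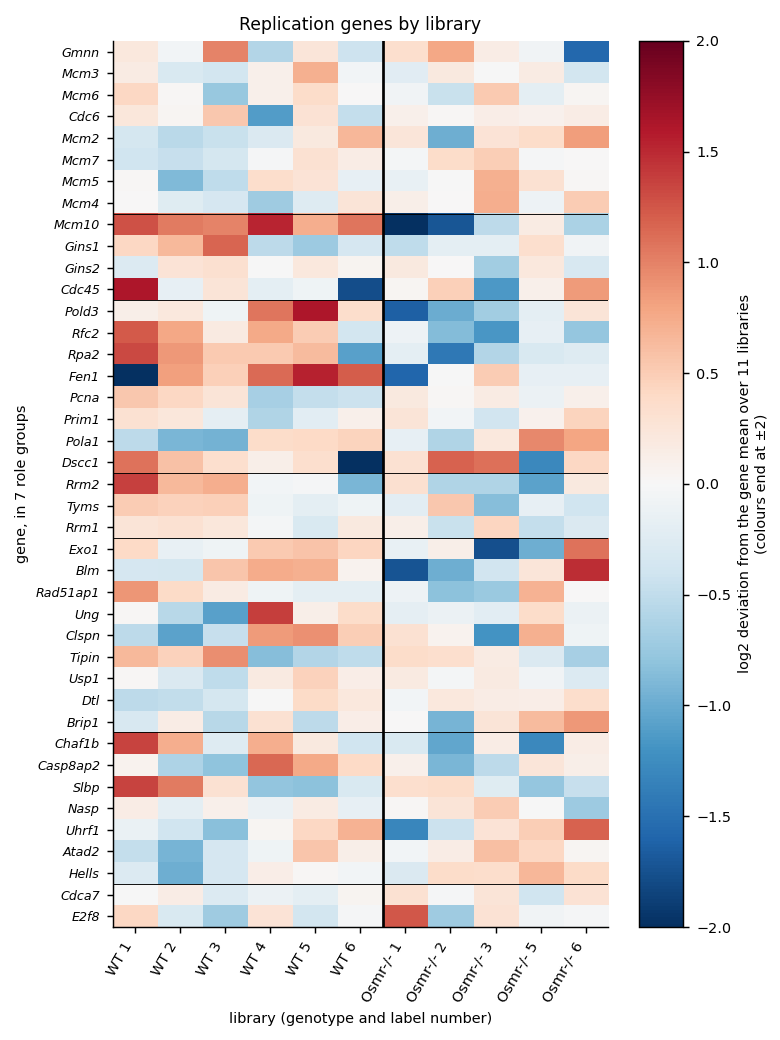
Rows are the 41 genes in 7 role groups and columns are the 11 libraries, WT left of the black line; colour is the log2 deviation of a gene from its mean over all libraries, ending at ±2. Mcm10 is above its mean in all 6 WT libraries, while the rows of Pcna, Slbp and Tipin turn from red to blue between WT 3 and WT 4.

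As a group the members had similar median levels in all libraries. The median deviation of the 41 members from their means, on the log2 scale, ran from -0.09 in WT 3 to 0.24 in WT 5 and from -0.04 in Osmr-/- 1 to 0.14 in Osmr-/- 3. The summed counts of the members were 36688 to 52657 in WT and 37690 to 40383 in Osmr-/-, with WT 1, the deepest library, at the top.

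Many members differed between the number sets. Within WT, 22 of the 41 members had no overlap between libraries 1 to 3 and libraries 4 to 6, of which 8 were higher in the lower numbers and 14 in the upper. Over all genes tested 32.2% had no overlap in this way, 16.1% in each direction, and since the sets were defined from these data the counts are a description. Slbp averaged 5073 in WT 1 to 3 and 1699 in WT 4 to 6, and Tipin averaged 5441 and 2162. Pola1 went the other way, with 799 and 1819. In Osmr-/- the same genes averaged 2952 and 1704, 4127 and 2443, and 1237 and 2518. In all, 26 of 41 members had the same direction between sets in both genotypes.

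The genotype difference was therefore also taken within each set. In numbers 1 to 3 limma placed 3 members higher and 8 lower at an unadjusted p under 0.05, beside 22% of all genes (8.92% higher and 13% lower). In numbers 4 to 6 it placed 0 higher and 2 lower, Fen1 and Pold3, beside 10.4% (4.42% higher and 5.94% lower). In either set alone limma called 0% of genes at an adjusted p under 0.05. The sign was the same in both sets for 20 members, 10 lower and 10 higher. Mcm10 had log2 differences of -3.16 and -1.35 in numbers 1 to 3 and 4 to 6, Rfc2 of -1.43 and -0.77, Pold3 of -1.18 and -0.98, Rpa2 of -1.64 and -0.31 and Hells of 0.67 and 0.49.

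Signs differed between the sets for Gins1, at -1.04 in numbers 1 to 3 and 0.66 in numbers 4 to 6, and for Pcna, at -0.28 and 0.51. The interaction of genotype and set, a test added after the data were seen, had an adjusted p of 0.294 for Gins1 and 0.369 for Pcna in limma. No gene of the table passed it, with 1316 of 13358 genes and 5 of 41 members at an unadjusted p under 0.05 in limma.

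**Figure D4:**
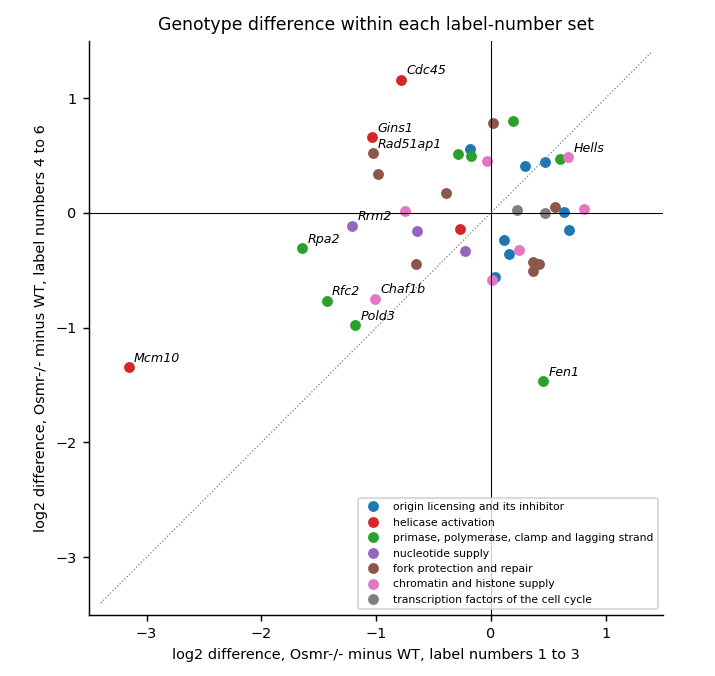
Each point is 1 of the 41 genes, with the log2 difference Osmr-/- minus WT in label numbers 1 to 3 on the x axis and in numbers 4 to 6 on the y axis, coloured by role; the dotted line marks equal differences. Mcm10, Rfc2, Pold3, Chaf1b and Rpa2 lie below 0 in both sets, while Gins1 and Cdc45 lie below 0 in the lower numbers and above 0 in the upper.

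Related gene lists set the members in context. Of 48 other genes of the replication machinery, limma called none over all genes tested, with a median log2 difference of -0.08. At an unadjusted p under 0.05 in limma 6 were higher and 2 lower, beside 7.5% higher and 10.5% lower over all genes. The lowest p-values belonged to the checkpoint scaffold gene Topbp1, at 1171 ± 407 in WT (SD, n = 6) and 2067 ± 429 in Osmr-/- (SD, n = 5), to Mcmbp, which binds the MCM ring, with a log2 difference of 0.88, and to Rpa3. Their limma adjusted p-values were 0.121, 0.135 and 0.142. A fit with a term for the number sets called 1 gene of this list higher, beside 2.52% of all genes in either direction.

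Of 18 other genes of nucleotide supply none was called, with a median of -0.09. In limma 1 was lower at an unadjusted p under 0.05, beside 10.5% of all genes. That gene was the S-phase thymidine kinase Tk1, at 665 ± 339 in WT (SD, n = 6) and 231 ± 143 in Osmr-/- (SD, n = 5), with a log2 difference of -1.55 and a limma adjusted p of 0.121. After it came Rrm2b and the serine hydroxymethyltransferase gene Shmt2, at 0.60 and -0.60.

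Of 28 regulators of the G1-to-S step none was called, with a median of -0.05. At an unadjusted p under 0.05 in limma 5 were higher and 4 lower, beside 7.5% and 10.5% of all genes. The cyclin gene Ccnd2 had 2928 ± 678 in WT (SD, n = 6) and 1765 ± 151 in Osmr-/- (SD, n = 5), with no overlap between the groups. The retinoblastoma family gene Rbl1 had 734 ± 78.8 and 1203 ± 232, also without overlap, in the other direction. Of the 28 genes 2 had no overlap with higher values and 1 with lower, beside 2.52% of all genes tested in either direction. E2f5, an E2F of the repressor type, had a log2 difference of 1.59. Limma adjusted p-values of the 3 genes were 0.121, 0.127 and 0.104. With a term for the number sets in the fit, 1 of the 28 genes was called higher, beside 2.52% of all genes in either direction.

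Mitotic genes had a lower median than the members. Of 52 G2/M genes 44 had a difference under 0 and 8 one over 0, and the list's median was -0.71 beside -0.05 for the members, and none was called over all genes tested in limma, with 21 lower and 1 higher at an unadjusted p under 0.05. Cenpa, the centromeric histone gene, had a log2 difference of -1.37 with a limma adjusted p of 0.0824, and Ccnb2 and Hmmr had -1.91 and -1.46. Of the 52 genes 2 had no overlap between the genotypes, both lower and Cenpa among them, beside 1.42% of all genes tested without overlap and lower. In the fit with a term for the number sets, 3 G2/M genes were called lower and 0 higher, beside 1.53% of all genes lower. Split by set, the G2/M genes centred on -0.93 for the lower numbers and -0.31 for the upper, beside -0.07 and 0.0007 for all genes. Summed G2/M counts ran from 51045 to 61032 in WT. Osmr-/- 5 lay inside that span at 56471, and the other Osmr-/- libraries lay below it, at 38364 to 43125. The difference between the members and the G2/M list was not tested.

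**Figure D5:**
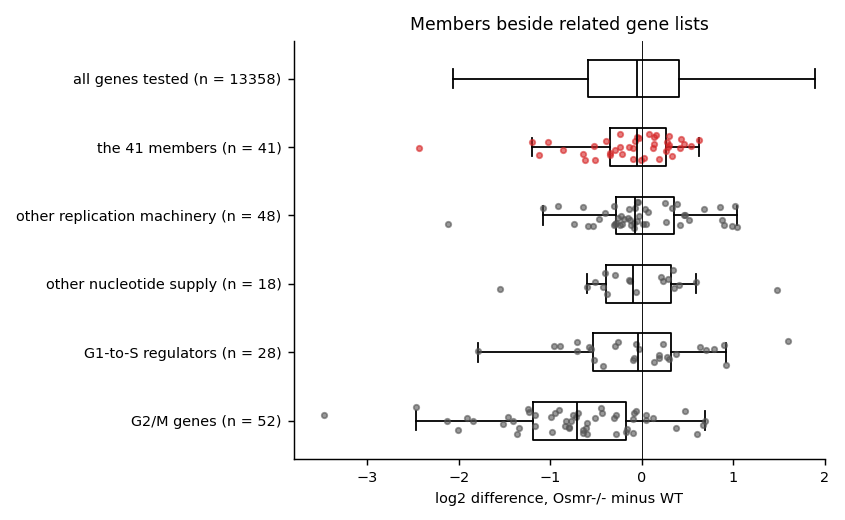
Log2 difference Osmr-/- minus WT (x axis) for all 13358 genes tested, the 41 members in red and 4 related gene lists; boxes span the quartiles with the median as a line, whiskers reach the last value within 1.5 box lengths, and points are single genes, left out for the row of all genes. The members centre on -0.05 and the G2/M genes on -0.71.

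Markers of other cells were read beside these values. Of 26 erythroid genes 23 were tested, and 22 of these had a difference under 0, for a median on the log2 scale of -1.90. Rhd, an erythroid membrane protein gene, fell by 6.05 on the log2 scale with a limma adjusted p of 0.0454, and the heme synthesis gene Alad had -2.51. The summed erythroid counts were 60036 to 67140 in WT 1 to 3, 23001 to 25479 in WT 4 to 6 and 15036 to 21906 in Osmr-/-, and none of the 26 genes was at 0 in all libraries. Between genotypes the erythroid genes went mostly in the direction of Mcm10, Rfc2, Rpa2 and Pold3. From WT 1 to 3 to WT 4 to 6, where the erythroid sum fell, Mcm10 averaged 106 and 109 and Pold3 469 and 950. Rfc2 averaged 3587 and 2699 in these sets, and Rpa2 1564 and 939. The part of erythroid genes in the genotype differences was not tested.

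The other marker lists overlapped between the genotypes in their summed counts. Megakaryocyte genes summed to 5975 to 11592 in WT and 7100 to 10511 in Osmr-/-, with Gp6 at 0 throughout. Granulocyte and monocyte genes summed to 9143 to 17818 and 10708 to 33029, with Ctsg at 0, and B cell genes to 578 to 1725 and 429 to 696. T and NK cell genes summed to 3390 to 6771 and 4688 to 6538 with Cd3g and Klrd1 at 0, and stroma and endothelium genes to 223 to 456 and 262 to 355 with Pdgfra at 0. The filter on low values was passed by 3 of 8 B cell, 1 of 8 T and NK cell and 3 of 10 stroma and endothelium genes. Sums of these lists can therefore rest on few genes.

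The authors' deposited table gives a DESeq2 comparison of the same libraries. It is printed here with the sign turned to Osmr-/- over WT. There, 2 members had an adjusted p under 0.05 in the authors' deposited table, both lower, which is 4.88% of members. Of its 13802 genes with an adjusted p, 4.46% passed in either direction and 2.79% were lower in the authors' deposited table. In the authors' deposited table Rfc2 had a log2 fold change of -1.04 with an adjusted p of 0.0132, and Mcm10 had -1.49 with 0.0142. Rpa2 and Pold3 had -0.96 and -1.01 there, with adjusted p-values of 0.0577 and 0.0629 in the authors' deposited table. As the same libraries enter both fits, this is no independent check.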

How the data were processed

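Polyadenylated RNA of 11 mice was analysed (6 WT, 5 Osmr-/-), amplified with a SMART-Seq v4 kit over 13 to 18 PCR cycles per the labels' protocols. Per the submitters' processing notes, Trimmomatic 0.36.6, FastQC 0.72, HISAT2 2.1.0, HTSeq 0.9.1 and the DESeq2 wrapper 2.11.40.6 were used with the mm10 build. For the gene annotation and the strand setting, the labels and notes give no entry. The deposited signal is the read count per gene divided by a DESeq2 size factor by the authors. The authors also deposited regularised log2 values. Their deposited comparison table has no header and holds a mean signal, log2 fold change, standard error and Wald score, p-value and adjusted p-value, as read from its values.

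The main test was limma 3.58.1 (eBayes with trend, two-sided, R 4.3.3) on log2(normalised count + 1), for genes with 10 or more normalised counts in at least 5 libraries, with genotype alone in the model and Benjamini-Hochberg adjustment over 13358 genes at 0.05. The pseudocount shrinks differences of low genes, but values on this scale can also exceed those of other tools. Mcm10 had -2.43 here, -1.98 in DESeq2 and -1.99 in edgeR. Whole reads were recovered by dividing each library by its smallest step, with the largest distance from a whole number at 1.4e-09, and were used for edgeR 4.0.16 (quasi-likelihood) and DESeq2 1.42.0. Depth was 9.50 to 22.1 M reads, and reads amplified by PCR are not independent molecules. The steps were tested on simulated data. Exon lengths come from GENCODE M21 and promoters from RefSeq.

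The members, gene lists, number sets and alternatives were chosen with earlier results of these data known. Full statistics are given for the 12 members of lowest p with Mcm2 to Mcm7 and Pcna, and for the 3 genes of lowest p in each related list. Other members appear by level or difference, and complex partners were named after their values were seen. Alternatives were other pseudocounts, filters, scaling, log values, variance estimates and tools, the number sets as a term or alone, a block by label number, and fits without each library.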

Additional observations from a re-analysis of the deposited data

How the results depend on the processing

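Over all genes limma called 3 genes with the settings used, and the count ranged from 0 to 125 when 1 library was left out, with 125 without WT 6. It was 55 with a pseudocount of 10, 69 on the authors' regularised log2 values, 337 with a term for the number sets and 453 in DESeq2. It was 0 with no filter (2779 at an unadjusted p under 0.05), with a filter at 50 (2122), in numbers 1 to 3 alone (2933) and in numbers 4 to 6 alone (1384). The cause was not tested.

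Of the members 0 were called with the settings used, beside 0.0225% of all genes. DESeq2 called 3 (7.5% of 40, beside 4.54%) and the fit with a term for the number sets 1 (2.44%, beside 2.52%). With 1 library left out 0 to 2 were called, beside 0 to 125 of all genes, the 2 being Rfc2 and Rpa2 without WT 6. Members at an unadjusted p under 0.05 in limma numbered 6 (14.6%, beside 18% of all genes). They numbered 11 in numbers 1 to 3 alone (26.8%, beside 22%) and 2 in numbers 4 to 6 alone (4.88%, beside 10.4%). With 1 library left out they numbered 4 to 8, beside 1781 to 2679 of all genes. Members without overlap numbered 1, with 13 and 12 in the sets alone (31.7% and 29.3% of members, beside 29.0% and 28.1% of all genes) and 1 to 3 when 1 library was left out, beside 2.88% to 6.06% of all genes (3 without WT 6, 2 without Osmr-/- 1 and 2 without Osmr-/- 6). The members' median stayed between -0.11 and 0.04 when 1 library was left out. In numbers 1 to 3 alone the log2 difference turned to 0.15 for Mcm3, 0.11 for Mcm6 and -0.28 for Pcna, and in numbers 4 to 6 alone to -0.15 for Mcm7. With 1 library left out Mcm3 ranged from -0.17 to 0.042 and Mcm6 from -0.21 to 0.049, above 0 without WT 5 for both (Mcm6 0.013), and for Mcm6 without Osmr-/- 2 and without WT 1 (0.024). Adjusted p-values over the alternatives ran from 0.0109 to 0.482 for Rfc2, 0.0322 to 0.504 for Mcm10, 0.0490 to 0.439 for Pold3 and 0.0412 to 0.837 for Rpa2. In promoter windows of 100 bases before the start, 4 of 31 members held a word (12.9%), beside 0.981% of all genes with a window and 1.79% of tested genes.

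Same-numbered libraries correlated at 0.0203 to 0.0986 in their deviations, and of the 5 pairs only number 3 correlated best with its own number. Whether the numbers pair the mice is not known from the labels, and low correlations cannot settle it. With the replicate block limma called 0 genes and 0 members, with 2418 genes and 7 members at an unadjusted p under 0.05. Depth limits Mcm10, with 2 to 53 reads per Osmr-/- library, and Ung, with 25 to 47.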
